A study of Bos taurus with 2 samples.

Results

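Interleukin and chemokine receptors were followed across the cell classes of the bovine mammary gland. The members were all genes in the deposited gene list whose symbol starts with IL, digits and R, or reads CCR or CXCR followed by digits. This gave 56 of 27270 genes: 40 by the interleukin pattern, 10 CCR genes and 6 CXCR genes. The pattern also takes in genes that are not signalling receptors. IL1RN and IL36RN encode secreted antagonists, IL22RA2 encodes a soluble decoy, and IL1RAPL1, IL1RAPL2 and IL17REL are related in sequence to receptors. The study compared the mammary gland (MG) of Holstein dairy cattle at 2 stages, adult in lactation and newborn, by single-cell RNA sequencing with the 10x Genomics 3′ kit. Each stage is represented by 1 library, and the labels give neither the age in days nor the number of animals pooled. Stage, animal and library therefore cannot be told apart, no test between stages was possible, and no p-value is given. Tissue was freed of white fat, digested with hyaluronidase and collagenases, and strained, so cells that do not survive or pass these steps are not represented.

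Interleukin receptors sit on the cell surface and usually work as pairs or trios of chains. One chain is specific to the cytokine and another is shared between several cytokines. IL2RG, the common gamma chain, pairs with IL7R, IL4R, IL21R and the IL2 receptor chains, and signals through JAK kinases and STAT factors. Receptors of the IL1 and IL17 families instead signal through adaptors such as MYD88 and TRAF3IP2. Chemokine receptors are single proteins that cross the membrane several times and steer cell movement along gradients of chemokines. In the mammary gland, neutrophils that enter from the blood defend the udder, and plasma cells homed to the gland supply part of the antibodies of milk.

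The adult file held 15897 cell barcodes with 85388618 unique molecular identifiers (UMIs, 1 per captured transcript), and the newborn file 13772 barcodes with 65597671 UMIs. The design text states 24472 high-quality cells, against 29669 barcodes in the files and 28401 kept here. The libraries shared 57 cell barcodes. Cells were classed by marker genes, none of which is a member. In all, 11737 adult and 11292 newborn cells fell into a class. Every class name stands for such a gate and means "like" that cell type, since no deposited annotation was used. The labelled tissue was borne out in the adult by 803 luminal epithelial cells and 400 milk-secreting cells, but no newborn cell passed an epithelial gate. Of the newborn cells, 10283 were fibroblasts, which express collagen genes. The other newborn classes with at least 50 cells were 712 mast cells, 85 lymphatic endothelial cells and 69 T cells. Levels are UMIs of a gene per 1000000 UMIs of the class (CPM), with an exact Poisson interval of 95% in brackets that covers counting error only. A gene gives 1 count per transcript whatever its length, so levels can be set side by side between genes, apart from differences in capture.

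In the adult gland 40 members reached at least 20 UMIs in a class, and 16 did not. In the newborn gland 29 did, and 30 when all T cells were joined, which added CCR7. The sum over all members was highest in adult neutrophils at 8440 CPM, followed by type 2 lymphoid cells at 5927, CD4 T cells at 5200 and macrophages at 5095 CPM. These sums take in the secreted antagonist IL1RN, at 2364 CPM in macrophages and 1732 in neutrophils, so they are not sums of receptors alone. The sum over all members was lower in the structural and mast cells. It was 1577 in mast cells, 1024 in fibroblasts, 499 in lymphatic endothelial cells, 481 in luminal cells and 114 CPM in milk-secreting cells. To ask which receptors marked 1 class, T and NK cells were joined, as were the endothelial classes, and a member was called when its highest class was at least 4-fold over the next. Of the 36 members with 20 UMIs in their highest class, 14 were called, against 16.4% of 9191 genes held to the same rule. Of these 14, neutrophils held 8. Neutrophils were the highest class for 22.2% of the 36 members and for 7.45% of all genes. With this cell filter, the receptors called in the adult gland were thus mostly those of neutrophils. Stricter filters left fewer neutrophils and fewer called members, as given below.

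**Figure D1:**
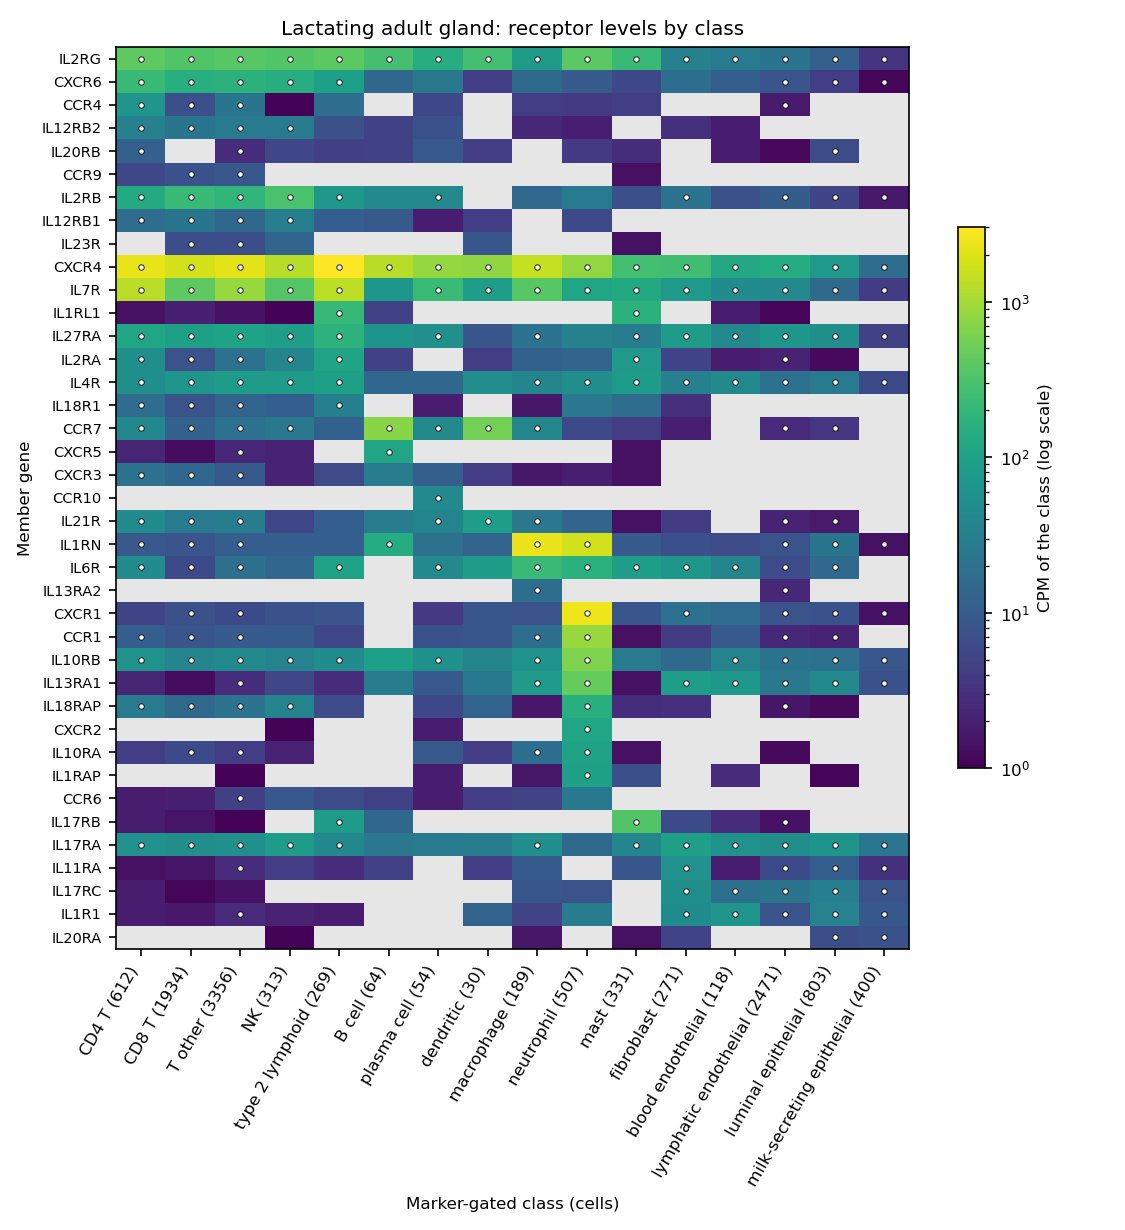
Levels of 39 members that reached 20 UMIs in at least 1 class shown, in CPM of the class on a log colour scale, over 16 classes of the lactating adult gland with their cell numbers. Dots mark entries of at least 20 UMIs, and grey marks entries under 1 CPM. CXCR4 and IL7R are bright across lymphoid cells, and CXCR1, CCR1 and IL10RB are brightest in neutrophils.

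Neutrophils, first responders to bacteria, held the chemokine receptors of their lineage. CXCR1, a receptor for CXCL8, stood at 2448 CPM [2313 to 2587] in 507 cells. The next class, fibroblasts, held 20 UMIs at 19.9 CPM. CCR1, which binds CCL3 and CCL5, was at 873 CPM and at 17.8 CPM in macrophages, the class with the next level. CXCR2, the neighbour and close relative of CXCR1, reached 114 CPM [86.6 to 147], on 58 UMIs. How reads shared by CXCR1 and CXCR2 were assigned is not given, so the split between them is uncertain. The IL10 receptor chains IL10RB and IL10RA, which carry the signal of an anti-inflammatory cytokine, were at 645 and 100.3 CPM. IL13RA1, a chain for IL4 and IL13, was at 450, IL18RAP at 157 and IL1RAP, the co-receptor of the IL1 family, at 96.3 CPM. These 8 genes were at least 4-fold above every other class of at least 20 cells. Neutrophils also had IL1RN at 1732, CXCR4 at 816, IL2RG at 391 and IL6R at 167 CPM. The cells were shallow, with a median of 872 UMIs. With at least 500 genes and at most 10% mitochondrial UMIs required together, neutrophils numbered 50 rather than 507. CXCR1 then stood at 1361, CCR1 at 717, IL10RB at 460, IL13RA1 at 267, IL18RAP at 82.8 and IL10RA at 27.6 CPM.

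Macrophages, which engulf bacteria and debris, were the highest class for 4 members, 11.1% against 7.09% of all genes. Of these, IL13RA2 was called. IL1RN, the secreted blocker of IL1 signalling, was at 2364 CPM [2277 to 2453] in 189 cells, 1.36-fold its level in neutrophils. IL6R was highest here, at 229 CPM. IL13RA2, a decoy for IL13, was at 17.8 CPM on 21 UMIs, and 2.32 CPM in the endothelial classes together. CXCR4 at 1497 and IL7R at 370 CPM were 72.9% and 49.7% of their levels in T cells, where CD3E, a T cell receptor chain, stood in macrophages at 5.73% of its T cell level. In 30 dendritic cells, which carry antigen to lymph nodes, CCR7 was at 556 CPM and IL21R at 85.5. CCR7 steers cells toward CCL19 and CCL21.

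B cells, 64 in number, had CCR7 at 715 CPM [605 to 839] and CXCR5, which guides B cells into follicles, at 110 CPM. CXCR5 was at 2.02 CPM in T and NK cells, the next class. In 54 plasma cells, the antibody producers, CCR10 was at 45.1 CPM [28.9 to 67.1] on 24 UMIs, and the next class held 1 UMI, a ratio of 49.4 [8.05 to 2030]. The CCR10 ligand CCL28 was highest in luminal epithelial cells, at 22.3 CPM, with 10.7 CPM in milk-secreting cells. These 2 classes are small, and the plasma cells also held CD3E at 10.4% of its T cell level beside CXCR4 at 847 and IL7R at 233 CPM.

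T and NK cells had the shared lymphoid receptors. In all 5902 T cells, CXCR4, the receptor for CXCL12, was at 2055 CPM. IL7R, which supports survival of resting T cells, was at 745 CPM and IL2RG at 367. IL2RB, shared by the IL2 and IL15 receptors, followed at 198 CPM, CXCR6, the receptor for CXCL16, at 170, IL27RA at 102 and IL4R at 72.0 CPM. The gut-homing receptor CCR9 was low at 7.77 CPM in T and NK cells, on 150 UMIs. It was called against 1 UMI in mast cells, at a ratio of 5.45 [0.963 to 217], so its place there is loosely bound. Luminal cells held CD3E at 2.37% of its T cell level and IL7R, IL2RB, IL2RG, CXCR6 and CXCR4 at 2.17% to 3.63% of theirs.

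CD4 T cells, the helper lineage, and CD8 T cells, the killer lineage, differed in a few receptors. Of 27 members with 20 UMIs in either, 4 were at least 4-fold higher in the 612 CD4 cells, against 0.48% of 8753 genes. CCR4, a receptor for CCL17 and CCL22, was at 64.3 CPM in CD4 and 7.09 in 1934 CD8 cells, a ratio of 9.08 [6.50 to 12.9]. IL6R was at 47.8 against 6.08 CPM, a ratio of 7.86 [5.44 to 11.6]. IL2RA, the chain that gives the IL2 receptor high affinity, was at 53.9 against 7.67 CPM, a ratio of 7.03 [5.03 to 9.94]. The CD4 cells thus had more of the inducible IL2 chain, whereas IL2RB was at 132 CPM in CD4 and 223 in CD8 cells. IL20RB, a chain of the IL20 receptor, was low in both, at 11.8 and 0.72 CPM, and its ratio of 16.3 rests on 25 and 5 UMIs. IL7R was at 1313 CPM [1265 to 1363] in CD4 and 410 [395 to 426] in CD8 cells, which falls short of 4-fold. In the other direction 1 member was called, against 1.51% of all genes: IL23R, the specific chain for IL23, at 6.80 CPM in CD8 and 1 UMI in CD4 cells. Cells with a CD3 UMI but none of CD4 or CD8 were not placed, and they numbered 3356.

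Against all T cells, the 313 NK cells, which kill without an antigen receptor, had no member at least 4-fold higher, where 0.266% of 10515 genes were. In T cells 3 of 35 members were higher, against 1.44% of all genes. These were CCR4 at 21.6 against 1.09 CPM, CXCR3 at 12.7 against 2.17 and IL21R at 30.8 against 5.43. CCR4 and CXCR3 rest on 1 and 2 UMIs in NK cells, which gives intervals of 3.55 to 788 and 1.60 to 48.5 for the ratios. IL2RB had its highest level of the 4 named lymphoid classes in NK cells, at 300 CPM [265 to 337], and IL12RB1, a chain for IL12 and IL23, was at 30.4 CPM. Within CD8 cells, the 1612 that held transcripts of killer granule genes had IL7R at 393 and CCR7 at 9.45 CPM, and the other 322 had 532 and 29.5 CPM. Neither ratio reached 4-fold. In that split 1 of 26 members was called, CCR1 at 9.12 against 2.27 CPM on 2 UMIs, against 1.01% of all genes.

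**Figure D2:**
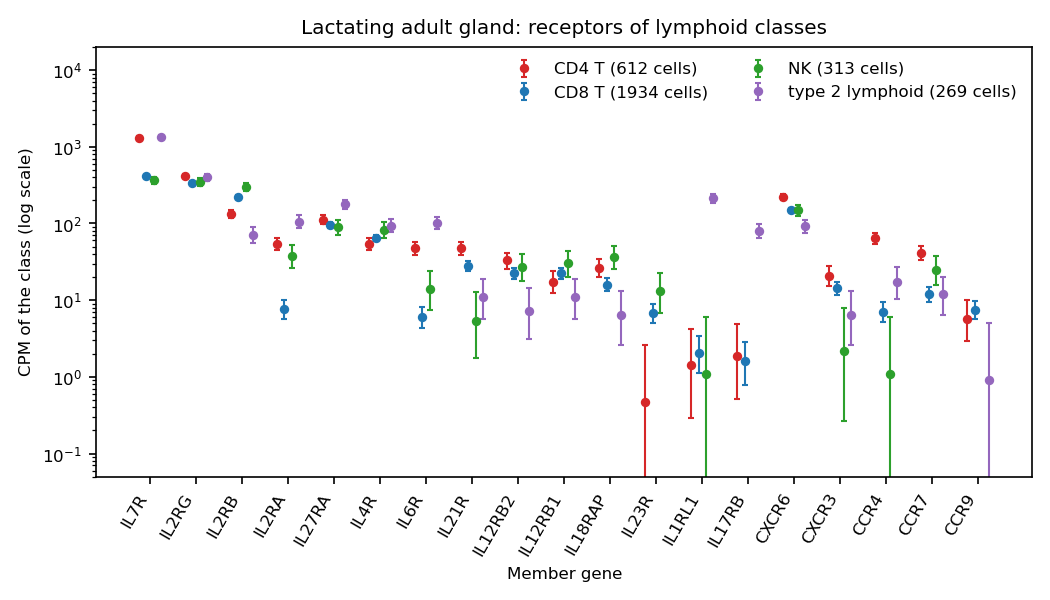
Levels of 19 members in 4 lymphoid classes of the lactating adult gland, in CPM on a log axis, with bars for the exact Poisson 95% intervals and no point where a class held 0 UMIs. IL1RL1 and IL17RB stand out in type 2 lymphoid cells, IL2RA, IL6R and CCR4 separate CD4 from CD8 T cells, and IL2RB is highest in NK cells.

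Type 2 lymphoid cells, gated by the genes for the cytokines IL4, IL5 and IL13 and for GATA3, PTGDR2, CHGA and KLRG1, numbered 269. Their CD3E level was 340 CPM, against 993 in T cells, and the class was not divided into T cells and innate cells. They had the highest CXCR4, at 2962 CPM, and IL7R at 1353 CPM [1285 to 1423]. IL1RL1, the receptor for the alarm cytokine IL33, was at 212 CPM [186 to 241] here, at 174 in mast cells and at 1.42 in CD4 T cells. IL17RB, the specific chain for IL25, was at 80.4 CPM, against 1.89 in CD4 T cells. These were the 2 of 25 members called above CD4 T cells, against 2.37% of 6164 genes. The ratios were 149 [50.5 to 729] for IL1RL1 and 42.5 [16.0 to 159] for IL17RB, the first resting on 3 UMIs in CD4 cells. IL2RA was at 106, IL6R at 102 and IL27RA at 178 CPM. In CD4 cells 4 members were higher, against 2.06% of all genes, among them IL12RB2, IL18RAP and IL21R, at ratios of 4.14 to 4.53. IL12RB2 completes the IL12 receptor and IL18RAP the IL18 receptor.

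Adult mast cells, tissue cells that release histamine and numbered 331, shared those receptors. IL17RB was at 339 CPM [298 to 385], the only member called for mast cells, 4.22-fold [3.29 to 5.45] above type 2 lymphoid cells. IL2RG was at 218, IL1RL1 at 174, IL6R at 85.5, IL4R at 84.1 and IL2RA at 75.6 CPM. CXCR4 at 265 and IL7R at 131 CPM were 12.9% and 17.6% of their T cell levels, where CD3E stood at 5.89%. IL1RL1 works with IL1RAP, which was at 7.13 CPM on 5 UMIs in adult mast cells.

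The structural cells of the adult gland had lower and broader levels. In 271 fibroblasts, IL11RA, the receptor for IL11, was at 57.6 CPM [43.8 to 74.5] and 10.8 in luminal cells, the only fibroblast member called. The IL17 receptor chains IL17RA and IL17RC were at 93.4 and 54.7, IL13RA1 at 85.5, IL27RA at 81.5, IL6R at 69.6 and IL1R1, the signalling receptor for IL1, at 49.7 CPM. CXCR4 at 260 and IL7R at 76.5 CPM in fibroblasts were 12.7% and 10.3% of their T cell levels, beside 6.61% for CD3E. Among vessels, 2 of 25 members were at least 4-fold higher in the 118 blood endothelial cells than in the 2471 lymphatic ones, against 2.15% of 11047 genes. IL1R1 was at 65.5 against 7.78 CPM, a ratio of 8.42 [6.16 to 11.4], and IL6R at 38.2 against 6.28, a ratio of 6.08 [4.11 to 8.88]. No member was called higher in lymphatic cells, where 5.88% of all genes were. IL27RA and IL17RA, at 68.1 and 52.6 CPM, were the members with the highest levels in lymphatic cells after CXCR4 at 142 CPM, which was 6.90% of its T cell level.

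Luminal epithelial cells, which line the ducts and alveoli, held IL17RA at 63.8, IL27RA at 54.7, IL13RA1 at 43.4, IL1R1 at 34.5, IL17RC at 30.7 and IL4R at 28.4 CPM. The IL20 receptor chains were found at 6.81 CPM for IL20RA and 6.50 for IL20RB. In milk-secreting cells, where milk protein genes made up a median of 76.4% of the UMIs, IL17RA was at 23.2 and IL20RA at 7.19 CPM. In all, 11 of 22 members were at least 4-fold higher in luminal than in milk-secreting cells. The share over 11133 genes was 65%, so the members' share was below that of all genes. None of the 22 was higher in milk-secreting cells, against 1.17% of all genes.

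In the newborn gland only 5 classes held at least 20 cells and were ranked, against 12 in the adult. Macrophages and B, dendritic, plasma and type 2 lymphoid cells were not ranked there, so a newborn call does not set them aside. Of the 25 members with 20 UMIs in their highest ranked class, 9 were at least 4-fold above the next, against 11.4% of 6847 genes. Neutrophils held 4 of these, T and NK cells 3 and mast cells 2. Neutrophils were the highest class for 16% of the 25 members and 3.84% of all genes. For T and NK cells the shares were 24% and 14.8%, and for mast cells 24% and 13.0%. Neutrophils, 34 cells, held CXCR1 at 1439 CPM [1165 to 1757], CCR1 at 794, IL1RN at 2458 and IL1R2, a decoy that binds IL1 without signalling, at 450 CPM [303 to 642]. Mast cells held IL17RB and IL2RA. T and NK cells held IL2RB at 233, CCR7 at 63.8 and CXCR6 at 55.8 CPM. Every other ranked class held 0 UMIs of CXCR6, so it was called against a floor of 3 UMIs over those classes together. Against neutrophils alone, the lower bound of its ratio was 0.957. Fibroblasts were the highest class for 9 members, with none of these called. This was 36% of the members, below the 41.4% of all genes that were highest in fibroblasts. In fibroblasts the interleukin pattern made up 548 of the 552 CPM summed over all members, and the chemokine receptors other than CXCR4 made up 0.604 CPM.

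**Figure D3:**
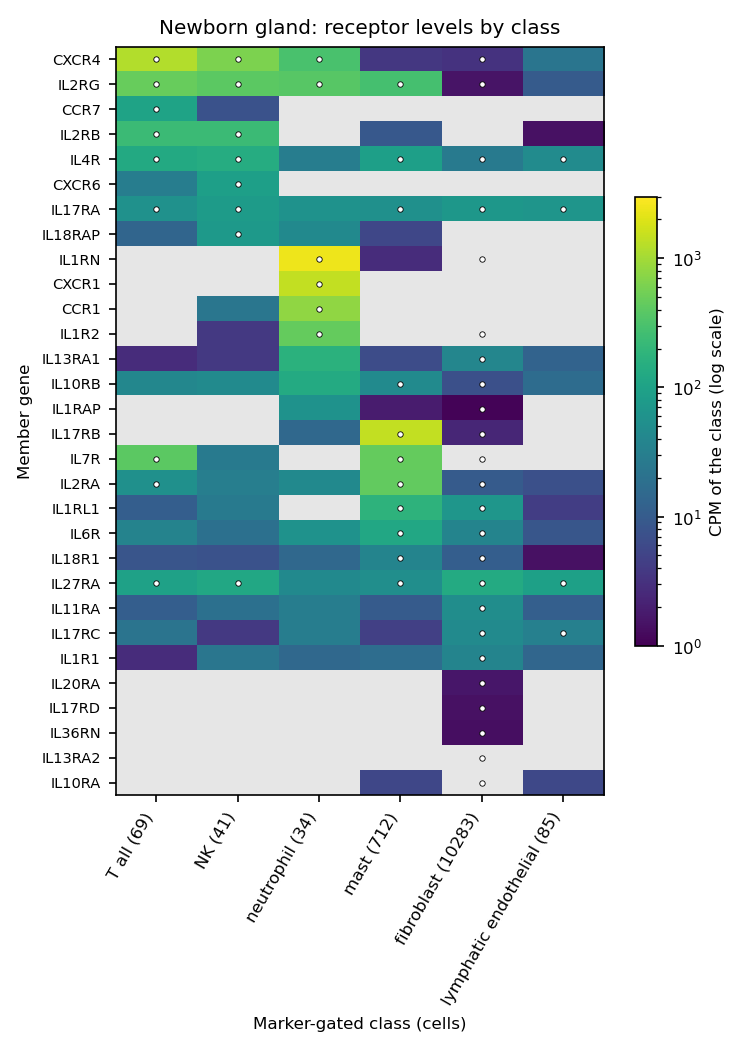
Levels of the 30 members that reached 20 UMIs in at least 1 class shown, in CPM of the class on a log colour scale, over 6 classes of the newborn gland with their cell numbers. Dots mark entries of at least 20 UMIs, and grey marks entries under 1 CPM. IL17RB, IL7R and IL2RA are bright in mast cells, and IL1RN and CXCR1 in neutrophils.

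Stages were compared in the 4 classes that held 50 cells or more in each library. In each, a member was counted when its levels differed at least 4-fold with at least 20 UMIs in the higher library. A gene under 10% of its level in another ranked class of the higher library was not counted, as a limit against RNA free in the suspension. For this limit T and NK cells were taken as 1 class, except in the comparison of T cells. The lower library was not held to it. Mast cells had 11 members to compare, of which 2 were higher in the newborn library, against 7.34% of 4238 genes, and none in the adult library, against 2.74%. IL2RA was at 75.6 CPM [56.6 to 98.8] in the adult and 437 [399 to 478] in the newborn library, a ratio of 5.78 [4.35 to 7.83]. IL17RB was at 339 CPM [298 to 385] in the adult and 1426 [1356 to 1498] in the newborn library, a ratio of 4.20 [3.66 to 4.84]. The newborn mast cells thus had more of both chains, and the intervals did not overlap. IL7R was at 131 and 451 CPM, a ratio of 3.44 [2.75 to 4.34], which was not called. IL1RL1 was at 174 and 179 CPM, a ratio of 1.03 [0.819 to 1.30], and IL2RG at 218 and 284. IL4R at 84.1 and 92.0 CPM and IL17RA at 39.9 and 56.5 CPM had intervals that overlapped. IL6R was at 85.5 and 120, IL27RA at 28.5 and 52.8, IL10RB at 27.1 and 45.5 and IL18R1 at 17.1 and 37.3 CPM.

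Markers of other cells in the mast classes were read beside these values. Newborn mast cells held 0 UMIs of CD3E and CXCR4 at 3.64 CPM, 0.302% of its level in newborn T cells, while their IL7R level was 112% of that in T cells. The 11 T cell markers summed to 3.64 CPM in the newborn and 84.1 in the adult mast class, with 9 and 4 of them at 0. The 13 fibroblast markers summed to 3875 CPM in newborn mast cells and 34048 in newborn fibroblasts, with none at 0 in either. In adult mast cells they summed to 47.1 CPM, with 3 at 0, and the part of fibroblast RNA in the stage ratios was not tested. Newborn fibroblasts had IL2RA at 9.94, IL17RB at 2.34 and IL7R at 0.955 CPM. The mast cells were shallow, with a median of 1226 UMIs in the newborn and 1982 in the adult, and 288 and 93 of them passed the gate at its minimum. With at least 3 markers required, IL2RA had a ratio of 7.92, and IL17RB stayed within its interval. When classes were taken from clusters, the mast class grew from 331 to 585 adult cells and from 712 to 1204 newborn cells. It then had 4 newborn-higher and 7 adult-higher members, given here without the share over all genes.

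**Figure D4:**
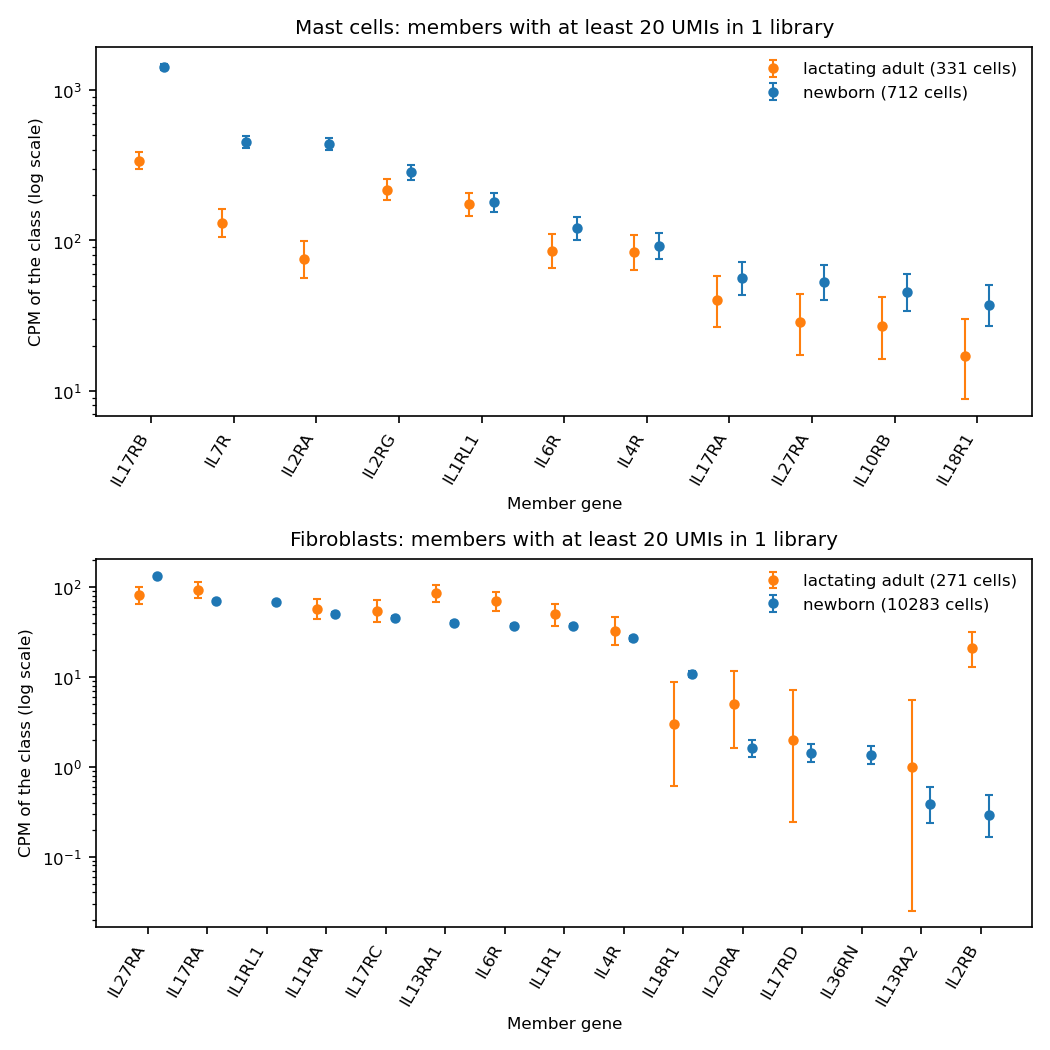
Levels in mast cells (top) and fibroblasts (bottom) of the members with at least 20 UMIs in 1 library and not set aside as free RNA, in CPM on log axes, with bars for the exact Poisson 95% intervals. IL17RB, IL7R and IL2RA lie higher in the newborn mast cells, while IL1RL1 and IL4R lie together. In fibroblasts IL1RL1 and IL36RN have no adult point because the adult class held 0 UMIs.

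In fibroblasts, IL1RL1 was found in the newborn library only. It had 3477 UMIs at 67.8 CPM [65.5 to 70.1] in the newborn and 0 of 1006174 UMIs in the adult class. Against the floor of 3 UMIs over the adult class it was at least 22.7-fold higher, and at least 14.9-fold after removal of likely doublets. It was the 1 of 15 members called higher in newborn fibroblasts, against 1.87% of 11638 genes. Gene counts cannot separate the membrane receptor from the soluble form of IL1RL1, which binds IL33 away from cells. The IL1RL1 level of newborn fibroblasts was 37.8% of that in newborn mast cells, while the mast cell genes CPA3 and IL17RB were at 0.185% and 0.164%. IL33 itself was at 34.8 CPM on 35 UMIs in adult fibroblasts and at 0.76 CPM in newborn ones.

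In the other direction 1 member was called, against 2.97% of all genes. IL2RB was at 20.9 CPM on 21 UMIs in adult fibroblasts and at 0.292 on 15 UMIs in newborn ones. That adult level was 10.5% of the T cell level, beside 12.7% for CXCR4, 8.92% for IL2RG and 6.61% for CD3E. The limit against free RNA joined T and NK cells, where IL2RB was at 203 CPM. Against NK cells alone, IL2RB would have fallen under the limit of 10%. IL2RB was not called after removal of likely doublets, or with at least 500 genes and at most 10% mitochondrial UMIs required together. Some other members lay closer between stages. IL11RA was at 57.6 and 50.4, IL17RC at 54.7 and 45.7, IL17RA at 93.4 and 70.3 and IL1R1 at 49.7 and 36.8 CPM in adult and newborn. IL27RA was at 81.5 CPM [64.8 to 101] and 132 [129 to 135], a ratio of 1.62 [1.30 to 2.04]. IL13RA1 was at 85.5 and 39.8 CPM, a ratio of 0.465 [0.375 to 0.585], and IL6R at 69.6 and 36.9. The median log2 ratio of newborn over adult was -0.42 for the 15 members and -0.61 for all genes compared in fibroblasts, so on the CPM scale most genes lay lower in newborn fibroblasts.

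Newborn fibroblasts were not uniform in IL1RL1. Clustering without the member genes gave 9 fibroblast clusters, F1 to F9, named by number. IL1RL1 was highest in F1, led by CCL20, SLPI and CFB, at 168 CPM [161 to 176]. It was at 110 in F4, led by the serum amyloid genes M-SAA3 and SAA3, at 88.7 in F9, at 70.0 in F6 and at 45.9 in F5. It was at 12.3 in F7, 5.56 in F2 and 4.64 in F3. In F8, led by CRISPLD1, CRABP1 and SFRP2, it was at 0.887 CPM [0.183 to 2.59]. The levels thus spanned from near 0 to close to the 179 CPM of newborn mast cells. IL2RA had its highest level in F1 as well, at 31.8 CPM [28.5 to 35.3], and its lowest in F8, at 0.592. IL17RB, the mast cell chain, lay between 0 and 1.55 CPM in all 9 clusters. A further 66 cells of the fibroblast gate fell in other clusters and held 87 of its 120 IL17RB UMIs. IL27RA lay between 89.3 and 214 CPM and IL17RA between 44.7 and 83.5, so these varied less than IL1RL1. Other members also varied widely: IL17RC lay between 13.9 and 200 CPM, IL18R1 between 2.37 and 29.6 and IL1R1 between 12.1 and 92.4. Each of these was lowest in F8 and highest in F9. F3 and F9 were shallow, with medians of 1727 and 795 UMIs, and F9 was led by mitochondrial genes.

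**Figure D5:**
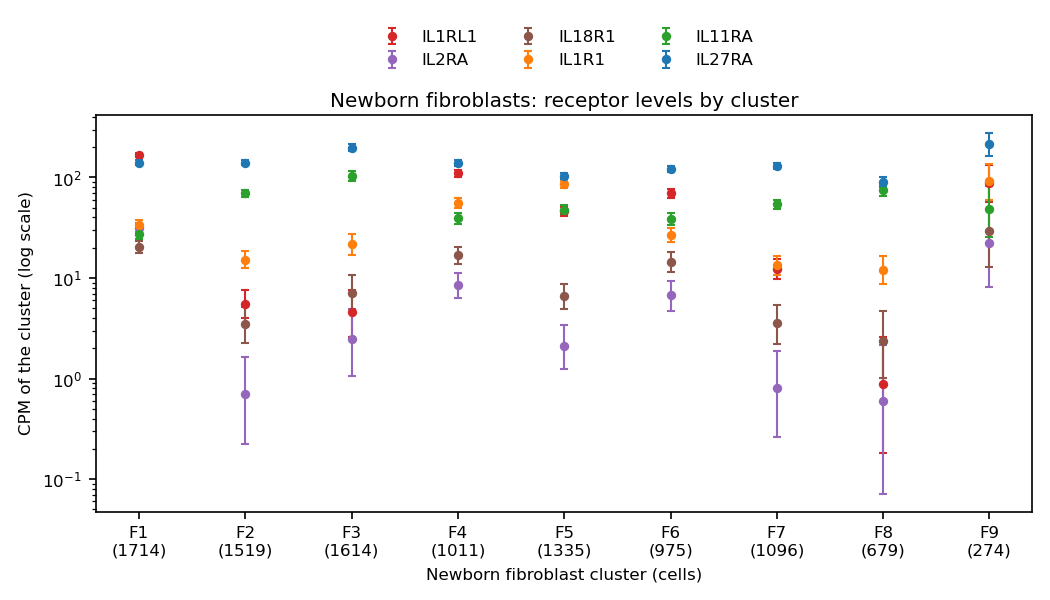
Levels of 6 members in the 9 newborn fibroblast clusters with their cell numbers, in CPM on a log axis, with bars for the exact Poisson 95% intervals. IL1RL1 ranges from 0.887 in F8 to 168 CPM in F1 and IL2RA is lowest and highest in the same clusters, while IL27RA stays between 89.3 and 214 CPM.

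T cells had 22 members to compare, 5902 adult against 69 newborn cells. CCR7 was at 19.6 CPM [17.7 to 21.8] in the adult and 104 [73.6 to 143] in the newborn library, a ratio of 5.30 [3.69 to 7.42], against 1.42% of 9095 genes called in that direction. Adult CD4 cells had CCR7 at 41.6 CPM. With classes from clusters the ratio was 3.47. Over newborn T and NK cells joined, CCR7 had 40 UMIs in 10 of 110 cells. The intervals do not cover such unevenness between cells. CXCR6 was at 170 CPM in the adult and 30.1 in the newborn, 5.64-fold [3.15 to 11.3] higher in the adult. It was 1 of 2 members called adult higher, against 1.64% of all genes. The intervals of IL2RB, IL27RA and IL17RA included a ratio of 1. IL7R had a ratio of 0.541 [0.456 to 0.636], CXCR4 of 0.588, IL4R of 1.79 and IL2RA of 2.86 [1.73 to 4.49], newborn over adult. Of the newborn T cells 2 were CD4, 22 CD8 and 45 unplaced, and of the adult ones 612, 1934 and 3356. The part of this makeup in the ratios was not tested. Fibroblast markers summed to 4218 CPM in newborn T cells and 51.5 in adult ones. Newborn fibroblasts had CCR7 at 0.078 CPM, and the part of fibroblast RNA in these ratios was not tested.

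In lymphatic endothelial cells none of 7 members was called, against 1.44% of 10140 genes higher in the newborn and 3.14% higher in the adult. IL4R was at 20.0 and 47.0 CPM in adult and newborn, a ratio of 2.35 [1.59 to 3.38], and IL27RA at 68.1 and 95.4. The 13 fibroblast markers summed to 186 CPM in adult and 4233 in newborn lymphatic cells, with 2 and 0 of them at 0. Newborn fibroblasts had IL4R at 26.9 and IL27RA at 132 CPM, and the part of fibroblast RNA in these ratios was not tested. Neutrophils were too few in the newborn for the comparison, and their values are set side by side. CXCR1 was at 2448 and 1439 CPM, CCR1 at 873 and 794, IL1RN at 1732 and 2458, and IL10RB at 645 and 135 in adult and newborn. IL1R2 was at 27.5 CPM on 14 UMIs and 450 on 30. The fibroblast markers summed to 110 CPM in adult and 5725 in newborn neutrophils.

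Chains that work together, and some pairs of separate receptors, were sought in the same cells. Each cell was first thinned to 1000 UMIs so that depth did not set the shares. In 509 newborn mast cells, with 203 shallower ones left out, 64.8% had a UMI of IL17RB, 33.2% of IL2RA, 30.8% of IL7R and 27.5% of IL2RG. In newborn fibroblasts the shares were 0.229%, 0.770%, 0.104% and 0.114%. Median depths before thinning were 1226 UMIs in mast cells and 4763 in fibroblasts. Without thinning, 70.5% of the mast cells had IL17RB, 43.8% IL2RA, 37.5% IL7R and 32.0% IL2RG. IL17RB and IL2RA belong to separate receptors, and both were called in newborn mast cells. They were found together in 25.5% [21.8 to 29.6] of mast cells, where the product of the single shares is 21.5%. Of all newborn mast cells, 288 passed the gate at its minimum, and their part in this share was not tested. IL2RA was found in 39.4% of mast cells with an IL17RB UMI and 21.8% of those without. The working pair for IL25, IL17RA with IL17RB, was found in 2.55% [1.37 to 4.33], against a product of 2.67%. The working pair for IL7, IL7R with IL2RG, was found in 9.43% [7.04 to 12.3], against 8.48%.

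In 604 adult CD4 T cells 61.9% had a UMI of IL7R, 34.4% of IL2RG and 20.7% [17.5 to 24.2] of both, against a product of 21.3%. Adult fibroblasts had IL7R in 3.11% and IL2RG in 3.56%, and luminal cells in 1.86% and 1.20%. Median depths were 2818 UMIs in CD4 T cells, 2398 in fibroblasts and 11530 in luminal cells. Without thinning, 80.4% of the CD4 T cells had IL7R and 66.8% IL2RG. The intervals of the IL7R and IL2RG pair included the product in CD4 T cells and in newborn mast cells. In 148 adult neutrophils of sufficient depth, with 359 left out, 83.1% had CXCR1, 53.4% CCR1 and 48.0% [39.7 to 56.3] both, against a product of 44.4%. These are separate receptors, not chains of 1 receptor. Fibroblasts had CXCR1 in 1.78% and luminal cells in 0.799%. Without thinning, 85.6% of all 507 neutrophils had CXCR1 and 50.1% CCR1. IL1RL1 was found in 18.7% of type 2 lymphoid cells, and in 14.4% of adult and 16.5% of newborn mast cells. IL1RAP, its partner, was at 1.82 CPM in newborn mast cells and 0 UMIs in adult type 2 lymphoid cells.

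Genes of the same pathways outside the name rule were taken from fixed lists. Of 11 co-receptors and shared chains with a symbol, 8 reached 20 UMIs in their highest adult class, and none was called, against 16.4% of all genes. IL6ST, the shared chain of the IL6, IL11 and IL27 receptors, was at 166 CPM in adult and 157 in newborn endothelial cells, and at 109 and 97.5 in fibroblasts. CSF2RB, the shared chain of the IL3 and IL5 receptors, was low, at 7.13 CPM in adult and 1.82 in newborn mast cells, beside IL5RA at 11.4 and 13.7. Of 22 JAK, STAT and MYD88 relay genes, 17 were measured in the adult and 1 was called against the same share, MYD88 in neutrophils at 745 CPM. MYD88 was at 719 CPM in newborn neutrophils. JAK3, the kinase bound to IL2RG, was at 42.0 CPM in adult T and NK cells. TRAF3IP2, the adaptor of IL17 receptors, was at 38.5 CPM in adult and 86.5 in newborn mast cells. In the stage comparison of mast cells, 1 of 14 relay genes was called higher in the newborn, IRAK3, and 1 of 4 co-receptors, IFNAR2, against 7.34% of all genes.

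Ligands were placed by the same rule. CCL21 is a marker of the lymphatic gate, and IL4, IL5 and IL13 are markers of the type 2 lymphoid gate. The class where these ligands are highest was thus partly set by the gate. Of 32 interleukin genes with a symbol, 13 were measured in the adult and 4 called, and of 33 chemokine genes 26 were measured and 15 called, against 16.4% of all genes. CXCL12, the ligand of CXCR4, was at 1113 CPM in adult and 370 in newborn fibroblasts. CCL21, the ligand of CCR7 and a marker of that gate, was at 2575 CPM in adult lymphatic cells and 1394 in newborn ones. CXCL16, the ligand of CXCR6, was at 1340 CPM in adult macrophages and 240 in luminal cells. CXCL8, the ligand of CXCR1, was itself highest in neutrophils, at 54021 CPM in the adult and 16380 in the newborn. IL33, the ligand of IL1RL1, was at 185 CPM in adult and 192 in newborn blood endothelial cells. IL7 was low, at 7.99 CPM in adult lymphatic cells. Newborn mast cells had IL13, a type 2 cytokine, at 283 CPM, where adult mast cells had 69.9, and EBI3, a subunit of IL27, at 34.6 against 7.13. These were the 2 of 3 interleukin genes called higher in the newborn mast cells, against 7.34% of all genes.

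In all, 43 members reached 20 UMIs in a class of either library, and 13 did not. IL1RAPL1 had 0 UMIs in both libraries, and the rest of the 13 were not measurable at this depth. By RefSeq's gene order in ARS-UCD2.0, 22 of the 56 members lie beside another member. The run IL1R2, IL1R1, IL1RL2, IL1RL1, IL18R1 and IL18RAP held genes with different highest classes in the adult: neutrophils for IL18RAP and, on 14 UMIs, IL1R2, fibroblasts for IL1R1, and type 2 lymphoid cells for IL1RL1 and IL18R1. IL1RL2 had under 20 UMIs in every class. The pair CCR9 and CXCR6 had T and NK cells as the highest class for both, and CXCR1 and CXCR2 had neutrophils.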

How the data were processed

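Mammary gland cells of 1 lactating adult and 1 newborn library were read as raw UMI counts from the matrices that the authors deposited. The submitters' processing notes name Cell Ranger 3.1.0. No source used here names the genome build or annotation, and no coordinates or sequences are printed. Barcodes with at least 300 genes and at most 20% mitochondrial UMIs were kept. A marker was held by a cell when it had a UMI and at least its mean share of the library. Cells needed 2 held markers of a list (3 for plasma, dendritic, macrophage, endothelial, epithelial and basal cells) and more than of any other list. Cells with markers of 2 lineages, and other cells with at least 30% milk protein UMIs, were left out. Milk-secreting cells had that share and a UMI of BTN1A1 or XDH. This scoring rule was set after the files were seen. The markers were set with the design, but the gates did not use all of them. Left out were TPSB1, TPSAB1, CMA1 and CTSG for mast cells, G0S2 for neutrophils, and TYROBP and FCER1G for NK cells. GZMH and the pericyte or smooth muscle list were not used either. The members and lists were chosen with earlier results of these data known. The values of 1 member are not reported here, and it stays in the counts. Doublets were treated by the gate: Scrublet's automatic threshold marked 0 cells in both libraries, so removal of the 1868 and 1511 highest-scoring cells was an alternative.

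UMIs were summed per class and scaled to CPM. Ratios carry exact conditional binomial intervals and shares exact Clopper-Pearson intervals, both of 95%, for counting error only. A member was compared with at least 20 UMIs in the higher class. Within a class, members with at least 20 UMIs were named from the highest level down, with those called at 4-fold, those at 0 and the chains and ligands of listed pairs. The share of genes called was taken over all genes with the same rule. The comparison was tested on simulated counts. Clusters used scanpy 1.11.5 with 2000 variable genes, 30 components, 15 neighbours and Leiden resolution 1. Alternatives were a stricter gate, classes from clusters, stricter cell filters, doublet removal, median-of-ratios scaling, a 2-fold limit, no limit against free RNA, and other depths of thinning.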

Additional observations from a re-analysis of the deposited data

How the results depend on the processing

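No paired analysis was possible because each stage has 1 library and no result comes from a test. With at least 500 genes and at most 10% mitochondrial UMIs, members highest in 1 adult class fell from 14 to 9, adult-higher members in mast cells went from 0 to 1 and in fibroblasts from 1 to 0. The adult neutrophils then numbered 50. At 2-fold, the newborn-higher and adult-higher counts were 2 and 4 in T cells, 4 newborn-higher in mast cells, 2 and 2 in fibroblasts and 1 newborn-higher in lymphatic cells. With classes from clusters, the counts were 4 and 7 in mast cells and 2 and 4 in fibroblasts. Median-of-ratios scaling gave 2 newborn-higher members in fibroblasts. For the stage comparison, the following settings were added after the data were seen. Removal of high Scrublet scores left 0 adult-higher members in fibroblasts. Without the limit against free RNA, adult-higher members numbered 1 in mast cells, 5 in fibroblasts and 3 in lymphatic cells. The causes were not tested. No share over all genes is given beside the counts of these alternatives, so none is read as a result about the members. Cells with IL17RA and IL17RB in newborn mast cells went from 2.55% to 8.04% at 2000 UMIs and 5.62% without thinning, and cells with IL7R and IL2RG to 13.3% without thinning. In adult CD4 T cells the latter pair went from 20.7% to 39.9% at 2000 UMIs and 54.2% without thinning. With classes from clusters the balance of counts in mast cells reversed, from 2 newborn-higher and 0 adult-higher members to 4 and 7. The low depth of neutrophils and mast cells limits what low receptors can show.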
